A study of Mus musculus with 2 samples.

Results

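The 10 genes described here encode the enzymes and chaperones that hydroxylate and fold procollagen in the endoplasmic reticulum, and were taken by gene symbol from the 24532 genes of the deposited count table. They are the prolyl 4-hydroxylase subunits *P4ha1*, *P4ha2* and *P4hb*, the lysyl hydroxylases *Plod1*, *Plod2* and *Plod3*, the collagen chaperones *Serpinh1* and *Fkbp10*, and *Crtap* and *Ppib* of the prolyl 3-hydroxylation complex. All 10 were found, all 10 have TPM (transcripts per 1000000 transcripts, a level scaled for gene length and library size) and all 10 are among the 11754 genes tested, those whose mean TPM over both libraries exceeds 1. Their levels were compared between cardiac myofibroblasts treated with a control siRNA (siCtrl) and with an siRNA against *Vgll3* (si*Vgll3*), to see how the mRNAs of this machinery differ after the knockdown.

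Both groups share their origin. The cells came from infarcted hearts of mice labelled C57BL/6, 3 days after myocardial infarction (MI), and the study's methods name the substrain C57BL/6J for work on isolated myofibroblasts and adult males for its MI model. They were plated overnight, kept as the CD45-negative fraction and grown in DMEM with 10% FBS. Each group received its siRNA at 12.5 nM with Lipofectamine RNAiMAX, and RNA was taken 72 h later. How many hearts were pooled, and whether both libraries came from 1 culture are not given in the sources used here. There is 1 library per group, so none of the differences below could be checked on replicates, and p-values are not given.

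In siCtrl 140815237 reads were counted on genes, and in si*Vgll3* 125789276. *Vgll3* itself (NCBI gene 73569), the targeted gene, was at 202 TPM with siCtrl and 84.0 with si*Vgll3*, 41.6% of the siCtrl level. The myofibroblast markers *Acta2*, which encodes α-smooth muscle actin (3296 and 3866 TPM), *Tagln* (1864 and 2680 TPM) and *Postn*, which encodes periostin (696 and 299 TPM), were abundant in both libraries but differed in opposite directions. Of the 6 markers of this list, 3 (*Postn*, *Col1a1* and *Col3a1*) had a log2 ratio of si*Vgll3* to siCtrl below −0.5 and 1 (*Tagln*) above 0.5. The shares of all genes tested were 11.4% and 5.73%, and the median of the 6 was −0.41. The markers *Ptprc*, *Adgre1* and *Itgam* of leukocytes and *Myh6*, *Actn2* and *Ryr2* of cardiomyocytes had 0 reads in both, where a count of 0 leaves room for up to 3 reads. The other leukocyte markers had reads in both libraries. *Lyz2* had 738 with siCtrl and 196 with si*Vgll3*, *Cd14* 163 and 231, and *Cd68* 97 and 84. The cardiomyocyte marker *Tnni3* had 0 and 10 reads. The 6 leukocyte markers summed to 13.7 TPM with siCtrl and 6.63 with si*Vgll3*, the 5 endothelial markers to 24.3 and 20.0 TPM (*Tek* went from 19.5 to 13.4 TPM while *Pecam1*, *Cdh5* and *Kdr* were higher with si*Vgll3*), and the cardiac troponin gene *Tnnt2* was at 60.0 and 10.4 TPM. Smooth muscle and pericyte markers summed to 141 and 200 TPM, with *Cnn1* at 44.0 and 96.6 TPM and *Myh11* at 0.482 and 0.180 TPM. Fibroblast markers summed to 1229 and 1097 TPM, with *Thy1* at 134 and 220 TPM, *Tcf21* at 192 and 128 TPM and *Lum* at 106 and 45.2 TPM. In bulk RNA, fewer cells of a type and less RNA per cell cannot be told apart, and the part of such cells in the results below was not tested.

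Procollagen chains are modified while they are threaded into the endoplasmic reticulum. Prolyl 4-hydroxylase makes the hydroxyproline that keeps the triple helix stable at body temperature, lysyl hydroxylases make the hydroxylysine that carries sugars and the cross-links of mature fibres, and the prolyl 3-hydroxylation complex acts on a few specific prolines and isomerises prolyl bonds. The chaperone HSP47, encoded by *Serpinh1*, binds the folded helix and leaves it after export, and in a scarring heart this machinery serves the myofibroblasts that lay down type I and type III collagen.

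To show which letters the later comparisons refer to, the sequence just upstream of the transcription start is printed here for *Serpinh1* and *P4hb*, the members with the highest levels. They lay at nearly the same level in siCtrl and differed in opposite directions in si*Vgll3*. Each is the 250 bases before the start in RefSeq (GRCm38.p6, the assembly also called mm10), read on the gene's strand. *Serpinh1* is at chr7:99353240-99353489 on the minus strand and *P4hb* at chr11:120573254-120573503 on the minus strand. Capitals mark the letters ACGTG of a HIF-type core, those of a CCAAT box, and the letters GGGCGG of an SP1-type GC box, each in either orientation. A HIF-type core on the opposite strand appears as CACGT.
Serpinh1: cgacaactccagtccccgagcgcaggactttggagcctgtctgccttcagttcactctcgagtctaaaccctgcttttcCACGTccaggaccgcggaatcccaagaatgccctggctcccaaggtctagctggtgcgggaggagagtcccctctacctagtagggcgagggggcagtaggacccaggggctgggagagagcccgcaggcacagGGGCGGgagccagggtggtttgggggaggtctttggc
P4hb: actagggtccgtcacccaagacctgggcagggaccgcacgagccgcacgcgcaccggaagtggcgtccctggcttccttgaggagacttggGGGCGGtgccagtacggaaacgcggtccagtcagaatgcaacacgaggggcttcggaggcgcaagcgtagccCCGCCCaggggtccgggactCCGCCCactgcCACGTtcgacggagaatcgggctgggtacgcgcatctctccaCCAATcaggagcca

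The *P4hb* stretch holds 3 GC boxes, 1 copy of CACGT and a CCAAT box whose first base lies at position −14 from the start. The *Serpinh1* stretch holds 1 GC box and 1 copy of CACGT, and no CCAAT box in either orientation. These are matches of letters, and binding was not measured in these libraries.

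Most of these mRNAs were at lower TPM with si*Vgll3* than with siCtrl, and *Serpinh1* was at a higher one. The difference is given as M, the log2 of the si*Vgll3* TPM over the siCtrl TPM, with nothing added. *Plod2* (M −0.64) and *Plod1* (M −0.61), 2 of the 3 lysyl hydroxylases, were the lowest, and *P4ha1* (M −0.50) followed. *Serpinh1* (M 0.43) was the only one of the 10 to be clearly higher, and *P4ha2* (M 0.04) was nearly level.

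By the threshold of the study, M below −0.5, 3 of 10 members were lower, beside 11.4% of all genes tested (1341 of 11754). The study reported a slightly different number of lower genes, and its paper does not say how M and A were computed. No member had M above 0.5, beside 5.73% of all genes tested (674). Counted by sign alone, 8 of 10 members had M below 0, beside 57.0% of all genes (6700). The median M of the members was −0.31 and that of all genes tested −0.05. With 10 genes picked for a common function, these shares describe the list and say nothing on whether it differs from other lists.

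The interval in brackets after an M is the 95% exact (Clopper-Pearson) interval of the ratio of read counts, shifted onto the TPM ratio. It covers counting error between these libraries only, and not the spread between cultures, which was not measured. The interval takes reads as independent molecules. Reads of a PCR-amplified library are not, so the interval can be too narrow even for counting error. The members are abundant mRNAs with between 12162 and 398620 reads per library, so the intervals are narrow, from 0.013 to 0.066 wide. Counting error alone leaves all 10 intervals clear of 0, and for 41 of the 45 pairs of members the intervals do not overlap. Such narrow intervals come with read depth, and the matching shares over all genes tested were not counted. These counts are therefore not a trait of the members. In order of M, the neighbours that cannot be told apart by counting are *Plod2* and *Plod1*, *P4hb* and *Fkbp10*, *Fkbp10* and *Crtap*, and *Ppib* and *Plod3*.

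**Figure D1:**
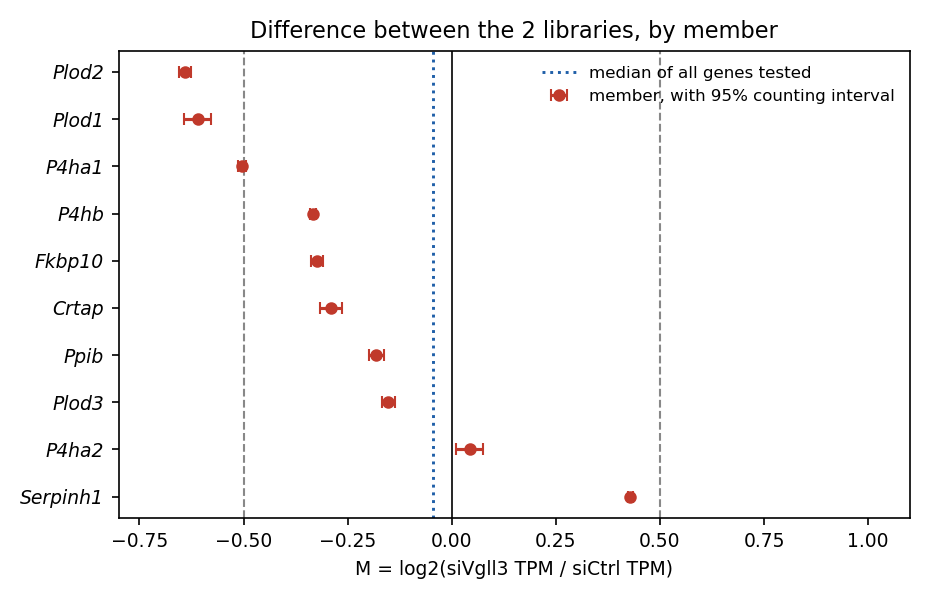
M of each member (horizontal axis, log2 of si*Vgll3* TPM over siCtrl TPM) with its 95% counting interval, dashed lines at −0.5 and 0.5 and a dotted line at the median of all genes tested. *Plod2* and *Plod1* lie wholly left of −0.5, *P4ha1* sits on that line, and *Serpinh1* alone lies far to the right of 0.

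Prolyl 4-hydroxylase is a tetramer of catalytic α subunits and of protein disulphide isomerase, the β subunit. The main catalytic subunit gene *P4ha1* (NCBI gene 18451, mm10 chr10:59323197-59373304) had 194326 reads with siCtrl and 126871 with si*Vgll3*. Its level was 753 TPM with siCtrl and 532 with si*Vgll3*. M was −0.50 [−0.51, −0.49], so 70.6% of the siCtrl level was measured and the interval straddles the threshold. The call of this gene changes with the scaling, since its M is −0.45 when counts are scaled by library totals (CPM). That leaves 2 of 10 members below −0.5, beside 1182 of 11806 genes tested.

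The second catalytic subunit gene *P4ha2* (NCBI gene 18452, chr11:54100924-54131668) had a level of 104 TPM with siCtrl and 107 with si*Vgll3*, from 15176 and 14461 reads. M was 0.04 [0.01, 0.08], a difference of 3.01%. It was the only enzyme subunit among the 10 that was not lower. *P4ha1* was 7.23 times as high as *P4ha2* in siCtrl and 4.95 times in si*Vgll3*. *P4ha3*, the third catalytic subunit gene, is not one of the 10 and was at 61.2 TPM with siCtrl and 30.4 with si*Vgll3* (M −1.01 [−1.06, −0.96]). Of the TPM summed over the 3 catalytic subunits, *P4ha1* made up 82.0% in siCtrl and 79.4% in si*Vgll3*, *P4ha2* 11.3% and 16.0%, and *P4ha3* 6.66% and 4.54%. Within the family, therefore, *P4ha2* gained share while both others lost it.

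The β subunit gene *P4hb* (NCBI gene 18453, chr11:120560298-120573253) encodes a protein that also forms disulphide bonds in many other secreted proteins. It had 358920 and 263560 reads, and its level was 2215 TPM with siCtrl and 1758 with si*Vgll3*. M was −0.33 [−0.34, −0.33], 79.3% of the siCtrl level. *P4hb* mRNA exceeded the summed catalytic subunits 2.41 times in siCtrl and 2.63 times in si*Vgll3*.

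Lysyl hydroxylases act on different stretches of the chain. LH1, from *Plod1*, acts mainly in the triple helix. LH2, from *Plod2*, acts on the telopeptides and so sets the type of cross-link found in fibrotic tissue. LH3, from *Plod3*, also transfers glucose to hydroxylysine that already carries galactose. *Plod2* (NCBI gene 26432, chr9:92539636-92608428) had 92696 and 55013 reads, and its level was 391 TPM with siCtrl and 251 with si*Vgll3*. M was −0.64 [−0.66, −0.63], the lowest of the 10, with 64.1% of the siCtrl level. Of all genes tested, 7.78% had a lower M.

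*Plod1* (NCBI gene 18822, chr4:147909753-147936776) was the least abundant member, at 96.6 TPM with siCtrl and 63.3 with si*Vgll3* from 20053 and 12162 reads. M was −0.61 [−0.64, −0.58], within counting error of that of *Plod2*. *Plod3* (NCBI gene 26433, chr5:136987019-136996646) stood apart from them, at 341 TPM with siCtrl and 307 with si*Vgll3* from 71343 and 59423 reads. Its M was −0.15 [−0.17, −0.14]. The *Plod2* to *Plod3* ratio was 1.15 in siCtrl and 0.818 in si*Vgll3*, so the order of these genes was reversed between the libraries. In shares of the summed family TPM, *Plod2* held 47.2% in siCtrl and 40.4% in si*Vgll3*, *Plod3* 41.1% and 49.4%, and *Plod1* 11.7% and 10.2%. The sum itself was 829 TPM with siCtrl and 621 with si*Vgll3* (M −0.42).

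HSP47 is a chaperone dedicated to collagens, and its gene *Serpinh1* (NCBI gene 12406, chr7:99345375-99353239) was the member with the highest M. It had 320359 reads with siCtrl and 398620 with si*Vgll3*, although the si*Vgll3* library held fewer reads in all. Its level was 2219 TPM with siCtrl and 2987 with si*Vgll3*, M 0.43 [0.42, 0.44], a level 34.6% above siCtrl. Of all genes tested, 93.0% had a lower M, and the gene went from rank 61 to rank 34 in TPM. *Serpinh1* and *P4hb* were equal within counting error in siCtrl (ratio 1.00) and apart in si*Vgll3* (ratio 1.70).

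*Fkbp10* (NCBI gene 14230, chr11:100415694-100424840) encodes FKBP65, a prolyl isomerase that binds procollagen and is needed for telopeptide lysyl hydroxylation by LH2. Its level was 528 TPM with siCtrl and 422 with si*Vgll3*, from 87722 and 64830 reads. M was −0.32 [−0.34, −0.31], 79.9% of the siCtrl level. The ratio of *Fkbp10* to *Plod2* was 1.35 in siCtrl and 1.68 in si*Vgll3*, as *Plod2* differed more.

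CRTAP, cyclophilin B (from *Ppib*) and prolyl 3-hydroxylase 1 (from *P3h1*) form the complex that 3-hydroxylates and isomerises the type I collagen chains. *Crtap* (NCBI gene 56693, chr9:114375131-114390712), whose product stabilises the complex, was at 246 TPM with siCtrl and 201 with si*Vgll3* from 26947 and 20404 reads, M −0.29 [−0.32, −0.26]. *Ppib* (NCBI gene 19035, chr9:66060169-66066629), which encodes the isomerase and also serves other secreted proteins, was at 962 TPM with siCtrl and 848 with si*Vgll3* from 58934 and 48117 reads, M −0.18 [−0.20, −0.16]. The catalytic gene *P3h1*, not one of the 10, was at 156 TPM with siCtrl and 93.1 with si*Vgll3*, M −0.75 [−0.77, −0.72]. The catalytic subunit thus differed more than either partner, and the *Crtap* to *P3h1* ratio was 1.58 in siCtrl and 2.17 in si*Vgll3*, the *Ppib* to *P3h1* ratio 6.16 and 9.12.

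**Figure D2:**
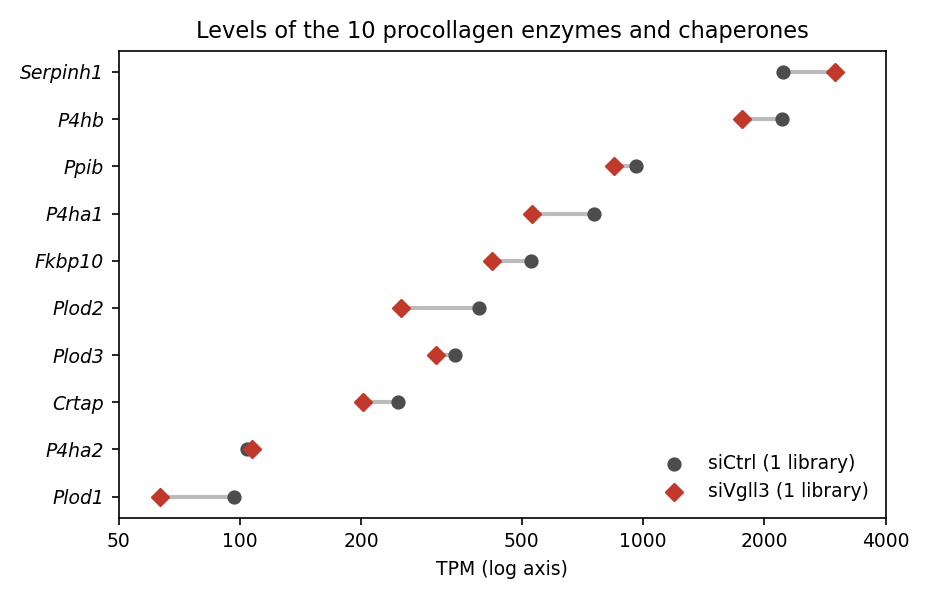
TPM of each member in siCtrl (circles) and si*Vgll3* (diamonds) on a log axis, 1 library each, ordered by the siCtrl level. *Serpinh1* and *P4hb* start together (2219 and 2215 TPM) and separate, and 8 of 10 diamonds lie left of their circles.

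The members spanned a 23.0-fold range of TPM in siCtrl, from *Plod1* to *Serpinh1*, and a 47.2-fold range in si*Vgll3*. In siCtrl 84.9% or more of the genes tested lay below each member, and in si*Vgll3* 78.3% or more. *P4hb* and *Serpinh1* were among the 100 highest genes in both libraries. *Serpinh1*, at the top of the levels in both libraries, had the highest M of the 10, and *Plod1*, the least abundant, the second lowest.

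**Figure D3:**
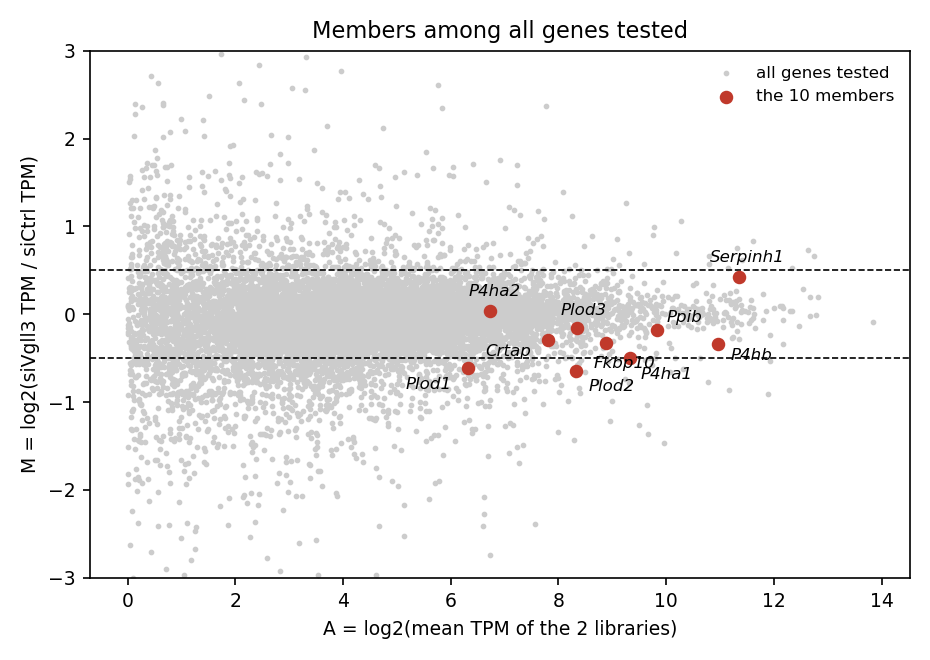
M against A, the mean level of both libraries as log2 TPM, for all 11754 genes tested (grey) and the 10 members (red), with dashed lines at −0.5 and 0.5 and 17 genes outside the plotted range of M. The members lie among the abundant genes at the right, and most of them below 0.

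Genes that overlap a member on the genome can share reads with it, and whether counting used strand is not given in the sources used here. *Plod3* overlaps *Znhit1* over 941 bp, and *Znhit1* had 4465 and 3415 reads, few beside those of *Plod3*. *Fkbp10* overlaps *Nt5c3b* over 2524 bp, with 3838 and 3401 reads on *Nt5c3b*. *Ppib* overlaps *Snx22*, which had 304 and 120 reads, and *Plod2* overlaps the gene B430319G15Rik with 309 and 234 reads. *Crtap* overlaps 4930520O04Rik, which had 0 and 14 reads, and *Plod3* also holds Mir702 with 1 read in each library. The other 5 members overlap no annotated gene.

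The mRNAs of the chains that these proteins act on were also lower. The fibrillar collagen chain genes with TPM (10 of 11 listed) summed to 14138 TPM with siCtrl and 8550 with si*Vgll3*, M −0.73 [−0.73, −0.72]. Of the 8 tested, 6 had M below −0.5 and 0 above 0.5, beside 11.4% and 5.73% of all genes tested. Their median was −0.81. *Col1a1* was at 4918 TPM with siCtrl and 2631 with si*Vgll3* (M −0.90 [−0.91, −0.90]), and *Col1a2* at 4585 and 3179 TPM (M −0.53 [−0.53, −0.52]). *Col3a1* (M −0.86), *Col5a1* (M −0.89), *Col11a1* (M −0.97) and *Col2a1* (M −0.76) also had whole intervals below −0.5. No member had a lower M than *Col1a1*, beside 4.07% of all genes tested. *Plod2* and *Plod1*, 2 of 10, had a lower M than *Col1a2*, beside 10.4% of all genes tested.

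Summed over the 10 members, the level was 7856 TPM with siCtrl and 7476 with si*Vgll3*, M −0.07 [−0.08, −0.07]. That near balance rests on *Serpinh1*, and the other 9 summed to 5637 TPM with siCtrl and 4489 with si*Vgll3*, M −0.33 [−0.33, −0.32]. Relative to the fibrillar chains, the members stood at 0.556 TPM per TPM of collagen in siCtrl and 0.874 in si*Vgll3*, and without *Serpinh1* at 0.399 and 0.525. For *Serpinh1* alone the ratio was 0.157 in siCtrl and 0.349 in si*Vgll3*, 2.23 times as high.

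Set against 100 TPM of *Col1a1*, every member was higher in si*Vgll3*. Only 4.07% of all genes tested had a lower M than *Col1a1*, so nearly all genes are higher by this measure. The rise is therefore not a trait of the members. *Serpinh1* went from 45.1 to 114, *P4hb* from 45.0 to 66.8, *P4ha1* from 15.3 to 20.2 and *Plod2* from 7.96 to 9.54. The differences in this ratio have their lowest value in *Plod2*, at 0.26 on the log2 scale, and their highest in *Serpinh1*, at 1.33. Against *Col1a2* the ratios of *Plod2* (8.54 and 7.89) and *Plod1* (2.11 and 1.99) were lower in si*Vgll3*. This is a comparison of mRNA levels, and protein was not measured in these libraries.

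**Figure D4:**
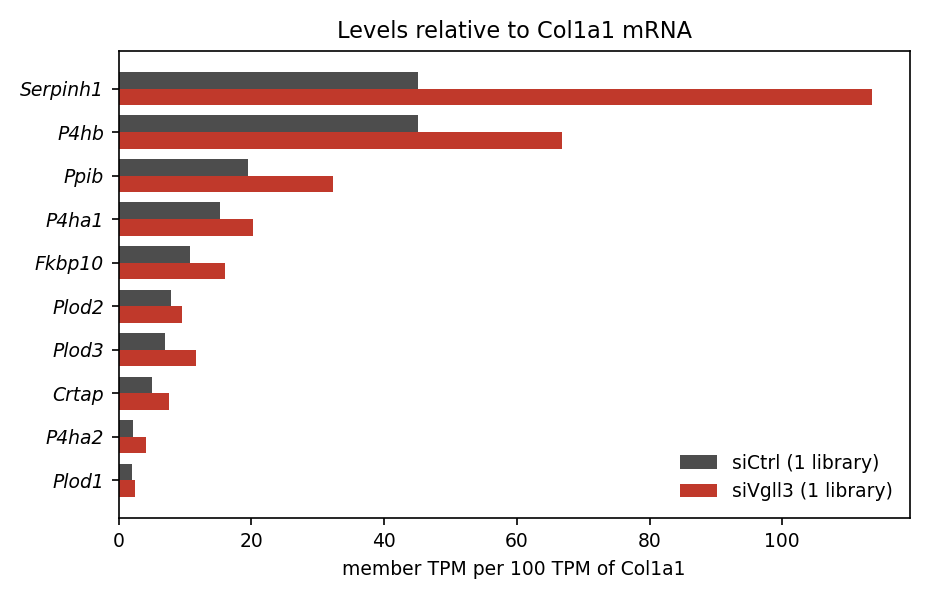
TPM of each member per 100 TPM of *Col1a1* in siCtrl (grey bars) and si*Vgll3* (red bars), 1 library each. All 10 red bars are longer than the grey ones, by most for *Serpinh1* (45.1 and 114). Nearly all genes tested would show this, since 4.07% of them had a lower M than *Col1a1*.

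Other genes that modify or chaperone procollagen were listed beside the members. Of 13 listed, 12 were tested, and their median M was −0.37. Of these, 4 had M below −0.5 and 0 above 0.5, beside 11.4% and 5.73% of all genes tested. By sign alone, 10 of 12 had M below 0, beside 57.0% of all genes. Beside *P4ha3* and *P3h1*, these were *P3h3*, another prolyl 3-hydroxylase, at 77.6 TPM with siCtrl and 50.7 with si*Vgll3* (M −0.61 [−0.65, −0.57]), and *Tmem38b*, an ion channel of the endoplasmic reticulum needed for collagen modification, at 17.0 and 11.4 TPM (M −0.58 [−0.67, −0.50]). The most abundant of the list, the isomerase gene *Fkbp9*, was at 356 and 374 TPM (M 0.07 [0.05, 0.08]), and the collagen galactosyltransferase gene *Colgalt1* at 222 and 167 TPM (M −0.41 [−0.43, −0.39]).

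General folding genes of the endoplasmic reticulum serve all secreted proteins. All 15 listed were tested, and 14 had M below 0 (57.0% of all genes), but only *Hyou1*, a chaperone of the HSP70 family, had M below −0.5 (160 and 106 TPM, M −0.60 [−0.62, −0.57]). The median was −0.27, and 11.4% of all genes tested had M below −0.5. *Calr*, the lectin chaperone calreticulin, was at 2625 TPM with siCtrl and 2173 with si*Vgll3* (M −0.27 [−0.28, −0.27]), while *Pdia3*, a disulphide isomerase, was at 1317 and 1240 TPM (M −0.09 [−0.10, −0.08]).

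Procollagen leaves the endoplasmic reticulum in large COPII carriers, and KDEL receptors return chaperones to it. Of 17 export genes listed 16 were tested, with a median of −0.07, beside −0.05 for all genes. Of these, 0 had M below −0.5 and 0 above 0.5, beside 11.4% and 5.73% of all genes tested. Scaled by library totals, 1 of them passed 0.5, beside 751 of 11806 genes tested. The KDEL receptor genes *Kdelr2* (518 and 540 TPM, M 0.06 [0.04, 0.08]) and *Kdelr1* (375 and 330 TPM, M −0.19 [−0.21, −0.16]) were the most abundant of the export genes.

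*P4ha1*, *P4ha2*, *Plod1* and *Plod2* are known targets of the hypoxia-inducible factor HIF-1, so other HIF targets were set beside them. Of 14 listed 13 were tested. Of these, 1 had M below −0.5 and 1 above 0.5, beside 11.4% and 5.73% of all genes tested. By sign, 10 were above 0 and 3 below, beside 57.0% of all genes below 0, and the median was 0.15. *Ndrg1* alone had its whole interval beyond a threshold, at 12.7 TPM with siCtrl and 31.5 with si*Vgll3* (M 1.31 [1.24, 1.38]). The glycolytic genes *Eno1* (2378 and 2632 TPM, M 0.15 [0.14, 0.15]) and *Ldha* (1682 and 1863 TPM, M 0.15 [0.14, 0.16]) lay between the thresholds. *Ankrd37* was past −0.5 by its point value alone, with 122 and 80 reads (M −0.51 [−0.93, −0.09]), and with any of the other scalings no gene of this list was. Among the members known as HIF targets, M was −0.64 for *Plod2*, −0.61 for *Plod1*, −0.50 for *P4ha1* and 0.04 for *P4ha2*.

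The hydroxylases need iron and ascorbate, and loss of the zinc transporter ZIP13, from *Slc39a13*, is known to impair them. Of 7 genes for the supply of these cofactors 6 were tested, with a median of −0.12. The iron exporter gene *Slc40a1* was lower (5.25 and 3.20 TPM, M −0.71 [−0.85, −0.57]). The zinc transporter genes *Slc39a13* (65.9 and 63.7 TPM, M −0.05 [−0.09, −0.01]) and *Slc39a14* (49.1 and 42.9 TPM, M −0.19 [−0.23, −0.16]) lay between the thresholds.

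*Serpinh1* is a known target of the heat shock factor HSF1, so 16 other heat shock genes were listed after its value had been seen. All 16 were tested, and 2 had M above 0.5 by TPM, beside 5.73% of all genes tested. That count was 4 when scaled by library totals, by TMM or after centring, 3 with DESeq2's size factors, and 2 with 0.1 or 1 TPM added. All genes above 0.5 were then 751 of 11806, 733 of 11807, 765 of 11754, 727 of 11807, 671 of 11863 and 611 of 14154, in this order. By sign, 11 of the 16 heat shock genes were above 0 and 5 below, beside 57.0% of all genes below 0. The median of this list was 0.18. *Hsp90aa1*, the inducible cytosolic HSP90 gene, was at 453 TPM with siCtrl and 668 with si*Vgll3* (M 0.56 [0.55, 0.57]), and *Hspa4l*, an HSP110-type chaperone gene, at 9.72 and 16.5 TPM (M 0.77 [0.69, 0.84]). The constitutive genes *Hspa8* (2295 and 2523 TPM, M 0.14 [0.13, 0.14]) and *Hsp90ab1* (1820 and 1768 TPM, M −0.04 [−0.05, −0.03]) were near level. The near-identical genes *Hspa1a* (M 0.41) and *Hspa1b* (M 0.46) can share reads. *Hsf1* itself was at 24.9 and 20.3 TPM (M −0.30).

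**Figure D5:**
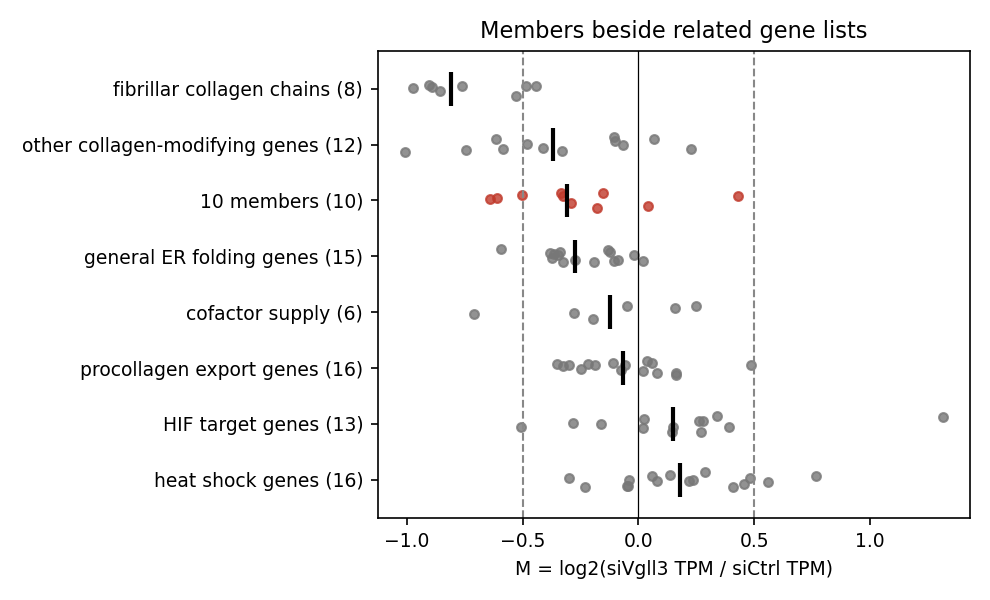
M of every gene tested in each list (dots, number of genes in parentheses), with the list median as a black bar and dashed lines at −0.5 and 0.5. Fibrillar chains sit lowest (median −0.81), the median of the 10 members (red, −0.31) lies between theirs and that of the export genes (−0.07) while *Serpinh1* lies above both, and heat shock genes have a median of 0.18.

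RefSeq start-site windows, from 250 bases before to 50 bases after the start, were given for 8 of the 10 members and not for *Plod2* and *Fkbp10*. The letters ACGTG, the core of the site bound by HIF-1 and by several other factors, were found on either strand in 6 of 8 members, beside 29.9% of 9363 tested genes with a window and 21.8% of 27025 genes. They were in the windows of *P4ha1*, *P4ha2*, *P4hb*, *Plod3*, *Serpinh1* and *Ppib*, and so in members of both directions. GGGCGG, the letters of an SP1-type GC box, was in 7 of 8 members and in 70.9% of the tested genes, and CCAAT in 3 of 8 and 43.6%. CATTCC, the core of a TEAD site (TEAD factors are partners of the VGLL family), was in the *P4hb* window alone, and in 14.3% of the tested genes.

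The paired units of a heat shock element, GAANNTTC and TTCNNGAA, were searched after the *Serpinh1* value had been seen. Neither set of letters was in the *Serpinh1* window, GAANNTTC was in that of *Plod1* (6.86% of tested genes) and TTCNNGAA in that of *P4ha2* (8.33%). A window without a match says only that these letters are not in these 300 bases.

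The miR-29 family is known to target collagen mRNAs, and its mature members share 1 seed, the bases that pair with a target. The 3 mature RNAs are printed from RefSeq with the seed (bases 2 to 8) in capitals, to show what was searched for.
mmu-miR-29a-3p: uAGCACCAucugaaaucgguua
mmu-miR-29b-3p: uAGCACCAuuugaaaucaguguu
mmu-miR-29c-3p: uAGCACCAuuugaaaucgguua

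The match to this seed, TGGTGCT, was found in the 3′ UTR of 2 of the 10 members, *Plod1* and *Fkbp10*, beside 14.3% of 10954 tested genes with a 3′ UTR. The 30 bases around each match are printed with the match in capitals, for *Plod1* at chr4:147910517-147910546 on the minus strand and for *Fkbp10* at chr11:100424713-100424742 on the plus strand (GRCm38).
Plod1: tggggctgcccaTGGTGCTcccactaatct
Fkbp10: agaacctgcactTGGTGCTaatctgagggg

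M was −0.61 for *Plod1* and −0.32 for *Fkbp10*, and the 8 members with no match ranged from −0.64 (*Plod2*) to 0.43 (*Serpinh1*). Over all tested genes, the median M was −0.08 with the match and −0.04 without it. The median 3′ UTR was 747.5 bases long in the members and 995 bases in all tested genes. Mature miR-29 was not measured in these libraries. By separate qRT-PCR, the study reported significantly higher miR-29b and miR-29a in cardiac myofibroblasts after *Vgll3* knockdown. The part of miR-29 in the differences above was not tested.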

How the data were processed

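Deposited RNA sequencing tables for 1 siCtrl and 1 si*Vgll3* library of mouse cardiac myofibroblasts were analysed. Libraries were made with the TruSeq Stranded mRNA LT kit and read on a NovaSeq instrument. Per the submitters' processing notes, FastQC, Trimmomatic, HISAT2 (mm10) and StringTie were used, and their versions are not given in the sources used here. The authors deposited raw read counts per gene, without normalization, and TPM per gene, scaled for gene length and library size. The TPM tables list 14158 genes, all with a read in both libraries.

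M was log2(si*Vgll3* TPM / siCtrl TPM) and A log2 of the mean TPM, with A > 0 as the filter and −0.5 and 0.5 as thresholds. No test was made with 1 library per group. Clopper-Pearson intervals came from SciPy 1.17.1 under Python 3.11.15 and were run on simulated Poisson counts. Those counts hold the interval's own assumption of independent reads, so this checks the calculation and not that assumption. edgeR 4.0.16 and DESeq2 1.42.0 in R 4.3.3 served for scaling only. Members and gene lists were chosen with earlier results of these data known. Named beside the members were *Vgll3*, *Col1a1*, *Col1a2* and, from each list, the 2 genes of highest mean TPM and up to 6 genes whose whole interval lay beyond 0.5. The marker lists of cell types were set in the design, but which markers to name was chosen after the values were seen. Also chosen then were the naming of *Ankrd37*, *Hspa1a*, *Hspa1b* and *Hsf1*, the heat shock list, its motifs and the sums without *Serpinh1*. Positions and start-site windows came from RefSeq for GRCm38.p6 and 3′ UTRs from GENCODE for GRCm38, with 1 transcript per gene. Alternatives were CPM, TMM and size-factor scaling, centring, added TPM, other filters and a threshold of 1. Protein sequences were not analysed here.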

Additional observations from a re-analysis of the deposited data

How the results depend on the processing

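No member changed the sign of M under CPM, TMM scaling, DESeq2's size factors, centring, or 0.1 or 1 TPM added. *P4ha1* moved above the threshold of −0.5, to between −0.45 and −0.46 under the first 4 of these, leaving 2 members below −0.5, while the other members kept their side of both thresholds. A threshold of 1 left 0 members and 384 of 11754 genes tested below −1, and no filter on A gave 2103 of 14149 genes below −0.5. The member sum (M −0.07) was −0.066 under CPM, −0.077 under DESeq2's size factors and −0.027 after centring, and −0.33 without *Serpinh1*, which was added after seeing the data. Its log2 ratio to the fibrillar sum (0.65) was 0.61 under CPM, TMM and size factors, 0.64 against *Col1a1* and *Col1a2* alone, 0.75 without *P4hb* and 0.40 without *Serpinh1*. Of 217 list values under alternatives, 196 stayed within the limits set for them, 21 moved and 0 reversed. No paired analysis was possible because only 1 library per group was analysed. At these read numbers the counting intervals were narrow, with reads taken as independent, and the spread between cultures was not measured.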
